A study of Mus musculus with 9 samples.

Results

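Small RNA sequencing of mouse blood serum gave reads from the stretches that flank mitochondrial transfer RNAs (tRNAs) in their precursor transcripts. The members are the distinct reads whose every alignment lies on a mitochondrial tRNA precursor reference, which carries up to 40 bases of leader ahead of the tRNA and 40 bases of trailer behind it. They numbered 577 of 41240 distinct reads and 7102 of 555585 reads on tRNA references. They fell into 26 sums over 20 of the 22 mitochondrial tRNAs, and none lay on Ala-TGC or Tyr-GTA. Of the sums, 24 are a tRNA with its leader side or its trailer side, and 2 are the junctions of His-GTG with Ser-GCT and of Asn-GTT with Cys-GCA.

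The samples belong to a study of salvianolic acid B (SalB), a plant phenolic, in atherosclerosis, and all serum was taken at week 20. Mice on a normal diet, mice on a high fat diet and mice on a high fat diet given SalB contributed 3 libraries each. The titles of the normal diet libraries carry the strain name C57, while the strain and genotype of the other groups, the SalB dose and the age of the mice are not stated in the labels. Diet or treatment and strain therefore cannot be told apart in comparisons with normal diet. Nothing in the labels ties each replicate to an animal of its own, and the p-values below reflect the spread among these libraries, part or all of which may be technical.

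Mitochondrial DNA is transcribed as long RNAs in which tRNAs stand between the ribosomal RNAs (rRNAs) and most messenger RNAs (mRNAs). Mitochondrial RNase P cuts at the 5′ end of each tRNA and the enzyme ELAC2 at its 3′ end, after which CCA is added to the tRNA. The same cuts free the neighbouring rRNA and mRNA, so the trailer of a tRNA can be the first stretch of the next gene, and the leader the last stretch of the one before.

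The sequences that carry most of the members are shown first. For Val-TAC the mature tRNA is in lower case and the trailer in capitals, at chrM:1025-1133 on the plus strand of mm10. The capitals begin at position 1094, the first base of the 16S rRNA gene mt-Rnr2 in RefSeq (assembly GRCm38.p6).
Val-TAC and trailer: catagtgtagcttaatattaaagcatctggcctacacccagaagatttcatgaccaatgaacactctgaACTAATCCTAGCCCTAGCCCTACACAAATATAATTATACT
The Phe-GAA trailer is shown from its second base, chrM:70-108, which is the first base of the 12S rRNA gene mt-Rnr1. Its first 18 bases, the length at which many of its reads stopped, are in capitals.
Phe-GAA trailer: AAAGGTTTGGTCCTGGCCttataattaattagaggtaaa
The Leu-TAA leader, chrM:2641-2676, ends with the last base of the 16S rRNA gene at position 2675, and the first base of the tRNA follows in a capital.
Leu-TAA leader: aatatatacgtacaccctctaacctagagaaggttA

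In lists of flanks by neighbouring gene, 6871 of the 7102 reads (96.7%) lay on rRNA and 81 on antisense or non-coding flanks. The junction of 2 tRNAs held 75 reads, and 75 were listed under mRNA. Of those under mRNA, 50 were His-GTG reads that reached only 1 base into the flank. There 46 of them carried G in place of the reference T. The rRNA reads came from 4 flanks. The trailer side of Val-TAC held 6669 reads, or 93.9% of the members, and that of Phe-GAA 131. Behind them came the leader sides of Leu-TAA with 56 reads and of Val-TAC with 15, which are the 3′ ends of the 16S and 12S rRNAs. By strand, 7075 reads were on heavy-strand-encoded tRNAs and 27 on light-strand-encoded ones.

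Most mitochondrial tRNAs were seen mainly as mature fragments, and Val-TAC, Phe-GAA and Asp-GTC were the exceptions. Precursor-only reads made up 97.3% of the Val-TAC reads (6684 against 183 mature), 74.0% of the Phe-GAA reads (131 against 46) and 55.6% of the few Asp-GTC reads (10 against 8). The share was 14.5% for Leu-TAA and 0.685% for His-GTG, whose mature fragments numbered 18110. It was 0 of 69 Tyr-GTA and 0 of 65 Ala-TGC reads, which allows up to 4.35% and 4.62% (3 reads, counting error only). Of the 125 His-GTG reads so counted, 50 reach 1 base ahead of the tRNA and 75 lie at the junction with Ser-GCT. Only 3 of them run 17 or more bases past the tRNA.

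**Figure D1:**
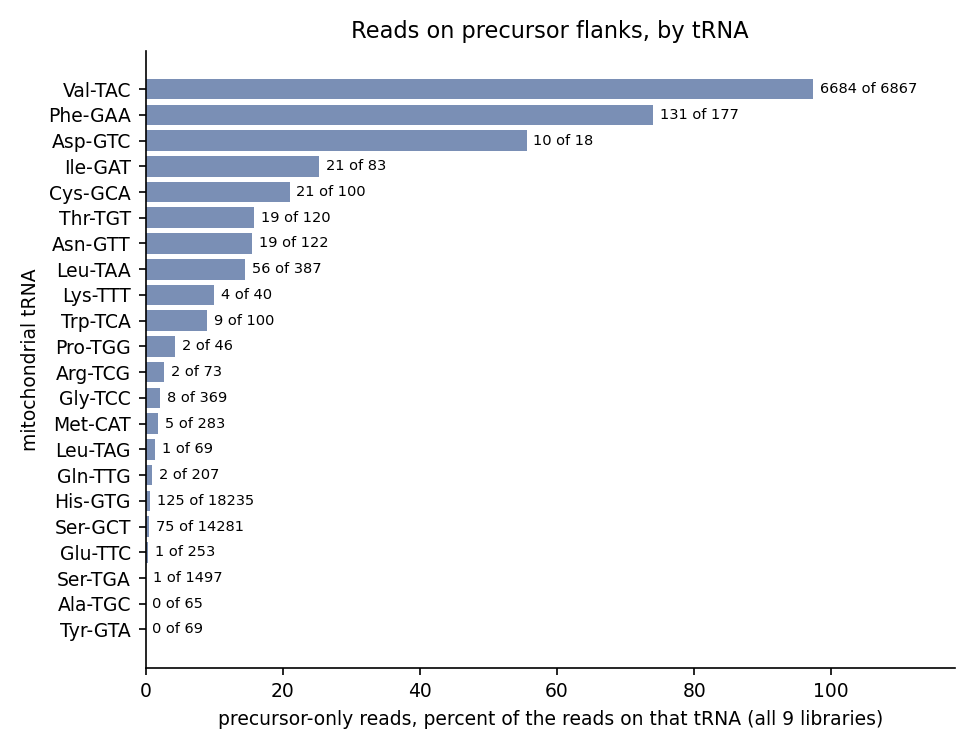
Precursor-only reads as a percent of all reads on each mitochondrial tRNA, summed over the 9 libraries; bar labels give precursor-only reads of all reads, and reads shared by 2 tRNAs are counted under both. Val-TAC (97.3%), Phe-GAA (74.0%) and Asp-GTC (55.6%) stand above the other tRNAs, and Asp-GTC has only 10 precursor reads.

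The libraries held 28191 to 156333 reads on tRNA references, of which 357 to 1738 were members. Of the 577 distinct members, 327 (56.7%) were seen once over all libraries. In 3 libraries the first base of a read differed less often from its reference than in the others. Among all reads whose reference starts with A, the read began with C in 1.17% for normal diet replicate 3, 0.564% for SalB replicate 1 and 0.485% for SalB replicate 2, against 4.79% to 9.81% in the other 6 libraries. These 3 are called the low first-base libraries below, since the labels give no batch, and every high fat diet library lies outside them. The references hold tRNAs only, so the labelled serum could not be checked against marker genes. SalB replicate 2 also stood apart in depth, with 156333 reads and a scaling factor of 0.471 in the fit over distinct reads.

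On the trailer side of Val-TAC, 6663 of 6669 reads (99.9%) started at the first base of the 16S rRNA. They formed 367 distinct reads that share this 5′ end and differ in length or by 1 base, so they are not independent molecules or genes. Of the 6663, 62.4% matched the reference throughout, 1664 reads had a changed last base and 4.70% a changed first base.

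The lengths had 3 peaks. Reads of 20 bases numbered 1746 (26.2%), reads of 21 bases 1017 (15.3%), reads of 24 bases 1333 (20.0%) and reads of 40 bases 783 (11.8%). Between 27 and 39 bases each length held at most 65 reads. The longest reads in the files have 40 bases, and the reference holds 40 bases of trailer. Reads of 40 bases therefore stop at both limits, and their RNAs may have been longer. A changed last base was found in 50.5% of the 20-base reads, 28.2% of the 21-base reads and 8.18% of the 24-base reads. At 20 bases the changed base was T in 526 reads, A in 312 and G in 44.

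The 5 most abundant reads show this nesting, with a base that differs from the reference in a capital.
24 bases, 1036 reads: actaatcctagccctagccctaca
20 bases, 741 reads: actaatcctagccctagccc
21 bases, 594 reads: actaatcctagccctagccct
40 bases, 550 reads: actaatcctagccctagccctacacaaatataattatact
20 bases, 526 reads, C20T counted from the read's 5′ end: actaatcctagccctagccT

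**Figure D2:**
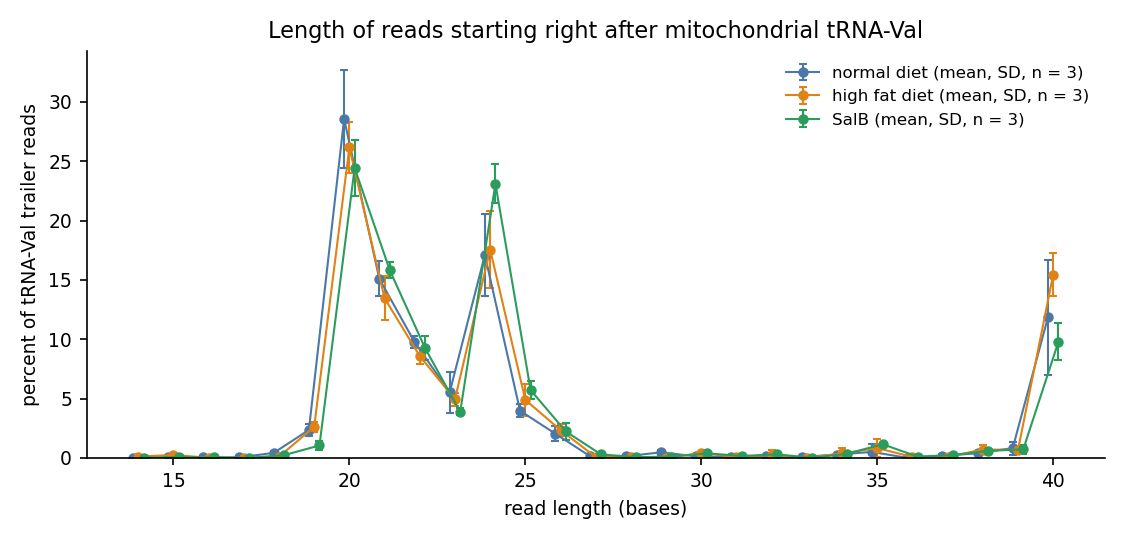
Length of the reads that start at the first base after mitochondrial Val-TAC, as a percent of such reads in each library; points are group means and bars the SD of 3 libraries. Each group peaks at 20, 24 and 40 bases, and SalB is highest at 24 bases (23.1%, against 17.6% and 17.1%).

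The Val-TAC trailer side was higher with SalB than in the other groups, in counts per 1000000 reads (CPM) after trimmed-mean (TMM) scaling. It stood at 10456, 10030.1 and 11639.9 in the normal diet libraries (10709 ± 834, SD, n = 3) and at 6854, 11103 and 9502 in the high fat diet libraries (9153 ± 2146, SD, n = 3). With SalB it stood at 27212, 13381 and 16222 (18938 ± 7304, SD, n = 3). All 3 SalB libraries lay above all 6 others, and the other groups overlapped. Such a gap was found for 27.5% of tested sums over high fat diet and for 26.5% over normal diet. In serum, as in any bulk sample, more source cells and more RNA from each cannot be told apart.

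In limma-voom over 102 tested sums, SalB against high fat diet gave a log2 fold change of 1.01 (SE 0.30, adjusted p = 0.0407). Val-TAC was thus 1 of the 8 sums called higher in that comparison, 7.84% of those tested, with 13.7% called lower. Only 2 of the 26 member sums, the trailer sides of Val-TAC and Phe-GAA, had enough reads to be tested. SalB against normal diet gave 0.73 (SE 0.30, adjusted p = 0.102), where 15.7% of sums were called higher and 9.8% lower. That value was 1.01 without SalB replicate 2 (limma-voom adjusted p = 0.00592) and 0.38 without SalB replicate 1 (adjusted p = 0.296). High fat diet against normal diet gave -0.28 (SE 0.32, adjusted p = 0.927), where 0% were called in either direction. The comparisons share their groups, so they are not independent of each other.

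The call was lost under 14 of 18 other settings. It was lost without each of the 3 normal diet and 3 high fat diet libraries in turn and without SalB replicate 1 (limma-voom adjusted p from 0.0619 to 0.223), and it was kept without SalB replicate 2 (0.00186) or 3 (0.0482). The log2 fold change was 0.56 with scaling by total counts (limma-voom adjusted p = 0.397), 0.88 with the low first-base libraries as a term in the fit (adjusted p = 0.162) and 0.79 without high fat diet replicate 1 (adjusted p = 0.223). As a plain share of tRNA reads, without scaling, the trailer side held 1.17%, 1.09% and 1.22% with normal diet, 0.755%, 1.23% and 1.02% with high fat diet, and 2.62%, 0.718% and 1.73% with SalB. On that scale SalB replicate 2 was the lowest of all 9 libraries and SalB replicate 1 the highest. Outside the low first-base libraries only 1 SalB library is left, replicate 3. It lay above the 3 high fat diet libraries on both scales, and 1 library gives no spread to test this by. With reads on the nuclear Leu-CAG-3-1 precursor left out of the total, the members as a whole moved from 0.784% to 1.35% of tRNA reads in SalB replicate 2, above all 6 libraries of the other groups. Those precursor reads lie mostly in SalB replicate 2, so leaving them out raises the share of that library by itself. SalB replicate 1 moved from 2.79% to 2.86%, and SalB replicate 3 from 1.846% to 1.847%.

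**Figure D3:**
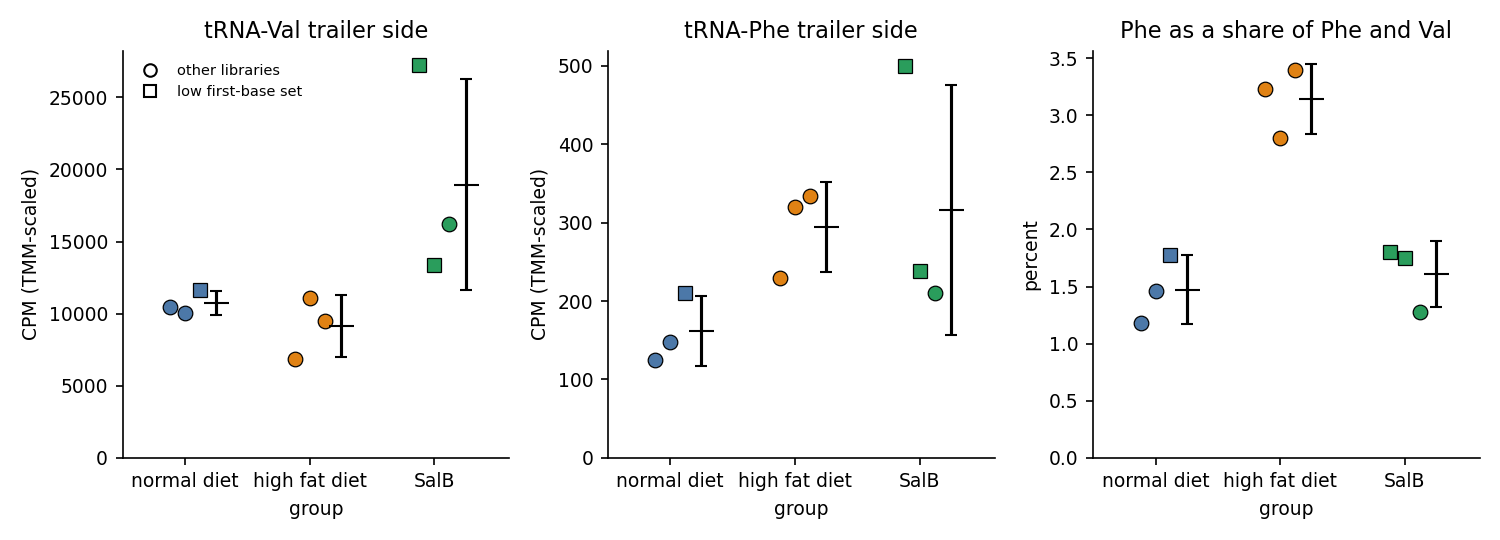
CPM after TMM scaling on the Val-TAC and Phe-GAA trailer sides, and Phe-GAA as a percent of both together, by library; squares are the 3 low first-base libraries, and bars give mean and SD of 3 libraries. The SalB libraries lie above the other 6 for Val-TAC (13381 to 27212), and the high fat diet libraries lie above the other 6 in the Phe-GAA share (2.80% to 3.40%).

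Among single reads, 13 of the 577 members passed the filter on low values, and all 13 start at the 16S rRNA 5′ end. SalB against high fat diet called 10 of them higher and none lower by limma-voom at adjusted p 0.05, where 17.6% of the 733 tested reads were called higher and 16.6% lower. SalB against normal diet called 7 higher and none lower, where 20.5% were called higher and 18.6% lower. High fat diet against normal diet called none of the 13, and 0% of all tested reads. At an unadjusted p under 0.05 it had 87 reads, none of them a member. Since the 13 are nested forms of 1 RNA end, their number adds nothing to the single sum above. The 10 calls fell to 4 without high fat diet replicate 1, to 6 without high fat diet replicate 3 or SalB replicate 1, and to 3 with the low first-base libraries as a term. Calls over all reads fell there too, from 251 of 733 to 149 of 673, 177 of 753, 177 of 670 and 164 of 733. The 7 calls against normal diet fell to 3 without normal diet replicate 1, normal diet replicate 2 or SalB replicate 1, and to 4 without high fat diet replicate 1 or 3. In that order, all reads called went from 286 of 733 to 244 of 750, 252 of 762, 188 of 670, 244 of 673 and 265 of 753.

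The 24-base read had 76, 48 and 132 reads with normal diet, 43, 47 and 60 with high fat diet, and 308, 218 and 104 with SalB. Its log2 fold change was 1.90 (SE 0.37, limma-voom adjusted p = 0.00403) for SalB against high fat diet and 1.48 (SE 0.37, limma-voom adjusted p = 0.00937) against normal diet. It was the only one of the 13 still called higher for SalB against high fat diet with scaling by total counts.

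The 40-base read, at 57, 17 and 121 reads with normal diet, 32, 41 and 53 with high fat diet and 112, 62 and 55 with SalB, was not called. Its log2 fold change for SalB against high fat diet was 0.77 (SE 0.45, limma-voom adjusted p = 0.203). The 20-base read had 50, 53 and 186 reads, then 51, 35 and 56, then 141, 99 and 70, in the same order of groups. For SalB against high fat diet its log2 fold change was 1.03 (SE 0.35, limma-voom adjusted p = 0.0390), a call lost under 9 of 18 other settings.

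The other 8 called reads had log2 fold changes of 1.20 to 2.42 for SalB against high fat diet. The smallest p after that of the 24-base read belonged to the 25-base read at 1.67 (SE 0.37, limma-voom adjusted p = 0.00642), the 20-base reads ending in T (1.43, adjusted p = 0.00814) and in A (1.81, adjusted p = 0.00856), and the 22-base read (1.59, adjusted p = 0.00882). Against normal diet the 24-base read was followed by the 25-base read (1.30, limma-voom adjusted p = 0.0125), with the 20-base reads ending in A (1.49, adjusted p = 0.0147) and in T (1.06, adjusted p = 0.0236) and the 26-base read (1.29, adjusted p = 0.0423) behind it. The 21-base read with T21A had the largest fold change with SalB against high fat diet, 2.42 (SE 0.73, limma-voom adjusted p = 0.0254), on 139 reads in all. That call was lost under 5 of 12 other settings, and the call of the 26-base read against normal diet under 12 of 16. The read ending in T lost its call against normal diet under 6 of 17, and the 24-base read lost its own there under 1 of 18 and under 0 of 18 against high fat diet. The 2 members that begin with C in place of A were not called and pointed down, at -0.88 (SE 1.18) and -1.14 (SE 1.13). For high fat diet against normal diet the smallest p were those of the 23-base read, at -0.68 (SE 0.37, limma-voom adjusted p = 0.478), and of the 22-base read, at -0.60 (SE 0.38, limma-voom adjusted p = 0.567).

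The reads that begin with C follow the first-base split between libraries, with 1 or 2 reads each in the low first-base libraries and 4 to 16 in the others.

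**Figure D4:**
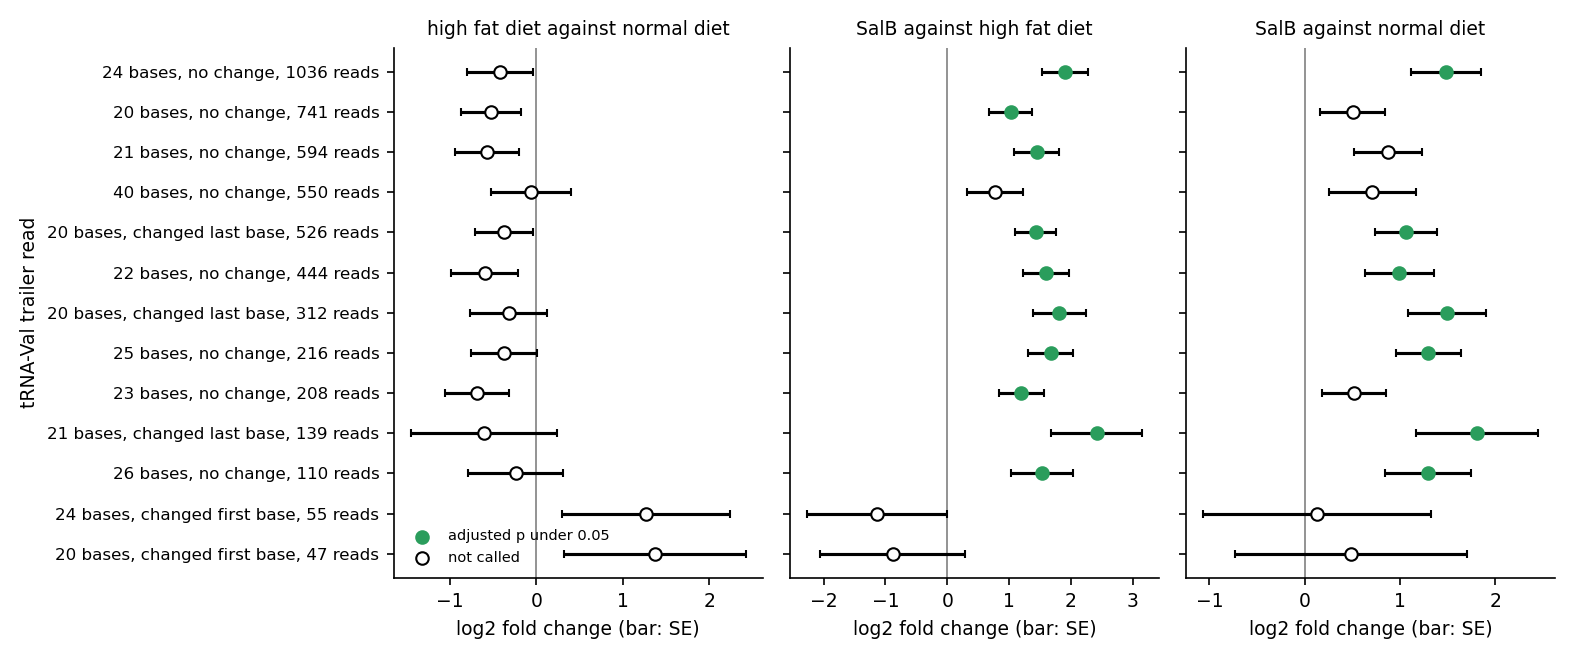
Log2 fold change (points) and SE (bars) of the 13 tested Val-TAC trailer reads in the 3 comparisons, ordered by total reads; filled points are called by limma-voom at adjusted p under 0.05. With SalB against high fat diet 10 points are filled, all to the right of 0, and with high fat diet against normal diet none is.

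Within the Val-TAC trailer, reads of middle length took a larger share with SalB. Reads of 24 to 26 bases made up 26.1%, 25.1% and 18.03% of these reads with normal diet, 21%, 27.4% and 25.99% with high fat diet, and 31.2%, 32.6% and 29.3% with SalB. The SalB libraries lay above all others, by 6.26 percentage points over high fat diet. Exact two-sided permutation tests gave p = 0.1 for SalB against each other group, the smallest value that 3 against 3 libraries allow. Over all 280 partitions into 3 groups the exact permutation p was 0.0679, and 0.170 after Benjamini-Hochberg adjustment over the 15 shares compared.

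The Phe-GAA trailer carries the 5′ end of the 12S rRNA, the RNA of the small mitochondrial ribosomal subunit. All 131 of its reads were in the trailer and 127 of them began at its second base, position 70. They fell into short reads of 14 to 23 bases, 77 in number with 64 of 17 or 18 bases, and longer reads of 32 to 39 bases, 44 in number. The reference ends with the trailer, so no longer read from this start could align.

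By library the Phe-GAA reads numbered 6, 5 and 21 with normal diet, 14, 10 and 16 with high fat diet, and 30, 20 and 9 with SalB. After TMM scaling the high fat diet libraries, at 229, 320.0 and 334 CPM, lay above the normal diet libraries at 125, 148 and 211 CPM, as 9.8% of tested sums did. SalB spanned 210.1 to 500.2 and overlapped the high fat diet range. No comparison was called: limma-voom gave log2 fold changes of 0.73 (SE 0.43, adjusted p = 0.853) for high fat diet against normal diet, 0.04 (SE 0.39, adjusted p = 0.923) for SalB against high fat diet and 0.78 (SE 0.41, adjusted p = 0.170) for SalB against normal diet.

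Set against the 16S end in the same library, the 12S end stood higher with high fat diet than in the other groups. Phe-GAA reads were 1.18%, 1.46% and 1.78% of Phe-GAA and Val-TAC trailer side reads together with normal diet (1.47 ± 0.30, SD, n = 3) and 3.23%, 2.80% and 3.40% with high fat diet (3.14 ± 0.31, SD, n = 3). With SalB they were 1.81%, 1.75% and 1.28% (1.61 ± 0.29, SD, n = 3). This ratio within a library does not depend on the scaling. The 3 high fat diet libraries lay above the 6 others, and all 3 lie outside the low first-base libraries. The part of the first-base split in this share was not tested.

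Exact two-sided permutation gave p = 0.1 for high fat diet against each other group, again the smallest possible, and p = 0.6 for SalB against normal diet. Over the 280 partitions the exact permutation p was 0.0214, or 0.161 after adjustment over the 15 shares. The ratio rests on 5 to 30 Phe-GAA reads per library. With each distinct read counted once, SalB less high fat diet was -0.25 percentage points (exact permutation p = 1) in place of -1.53, and high fat diet less normal diet was 2.06 (exact permutation p = 0.3) in place of 1.67.

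The leader side of Leu-TAA, the 3′ end of the 16S rRNA, held 1, 4 and 4 reads with normal diet, 11, 4 and 8 with high fat diet, and 10, 5 and 9 with SalB. Of the 56, 38 ended at the last base before the tRNA, and they ran from 15 to 40 bases. The Val-TAC leader side, the 3′ end of the 12S rRNA, held 15 reads, of which 10 ended 1 base into the tRNA, all 10 with a changed last base. Neither sum had enough reads to be tested.

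Mitochondrial mRNAs begin at or close to their start codon, and the few trailer reads beside mRNA genes began there. Of 16 such reads, 15 started at the annotated first base of the mRNA: 6 at ND3 behind Gly-TCC, 3 at ND2 behind Met-CAT, 2 each at COX2 behind Asp-GTC and ATP8 behind Lys-TTT, and 1 each at ND4L behind Arg-TCG and ND5 behind Leu-TAG. These genes encode subunits of complex I, of cytochrome oxidase and of ATP synthase. The reads shown for 3 of them open with the start codon atg or atc.
ND4L: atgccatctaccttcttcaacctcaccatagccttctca
ATP8: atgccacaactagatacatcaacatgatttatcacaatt
ND5: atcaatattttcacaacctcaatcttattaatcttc

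Over all trailers, the share of reads at the first base after the tRNA was 98.4%, 98.5% and 98.1% with normal diet, 96.3%, 97.2% and 96.6% with high fat diet, and 97.6%, 96.5% and 98.4% with SalB. High fat diet lay below normal diet in all 3 libraries, by 1.63 percentage points (exact two-sided permutation p = 0.1, the smallest possible). Phe-GAA reads, which start at the second base, are the largest group among the rest, so this share is not independent of the ratio above. SalB overlapped both groups (exact permutation p = 0.3 against each).

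The leader side made up 1.35%, 3.36% and 1.25% of the members with normal diet, 4.14%, 1.63% and 3.04% with high fat diet and 1.496%, 1.39% and 2.70% with SalB. The groups overlapped in every comparison, with exact two-sided permutation p from 0.2 to 1. The members' share of all tRNA reads was 1.21 ± 0.06%, 1.08 ± 0.24% and 1.81 ± 1.01% (SD, n = 3 each) with normal diet, high fat diet and SalB. Exact permutation gave p = 0.4 for SalB against each other group and 0.5 for high fat diet against normal diet. Reads on the precursor of the nuclear tRNA Leu-CAG-3-1 change this order. With them left out of the total, the members were 2.86%, 1.35% and 1.85% with SalB and 0.828% to 1.30% in the 6 other libraries. Every SalB library then lay above all others, by 0.941 percentage points over high fat diet and 0.812 over normal diet (exact two-sided permutation p = 0.1 for each, the smallest possible). The step moved SalB replicate 2 from 0.784% and SalB replicate 1 from 2.79%, while the 6 other libraries kept their range. The reads left out lie mostly in SalB replicate 2, so the step raises the share of that library by itself. SalB replicate 3 moved only from 1.846% to 1.847%. The gap and its p are therefore not independent support for more members with SalB.

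Without the Val-TAC trailer side, the members were 0.0395%, 0.0612% and 0.0454% of tRNA reads with normal diet, 0.0721%, 0.0709% and 0.0878% with high fat diet and 0.170%, 0.0659% and 0.115% with SalB. High fat diet lay above normal diet in every library (exact two-sided permutation p = 0.1, the smallest possible) and overlapped SalB. SalB also lay above normal diet in every library, by 0.0682 percentage points (exact two-sided permutation p = 0.1). Over the 280 partitions the exact permutation p was 0.0571, or 0.170 after adjustment over the 15 shares. Phe-GAA, with 131 reads, is the largest sum in this share, which is thus not independent of the Phe-GAA results above. With reads on the Leu-CAG-3-1 precursor left out of the total, SalB differed from high fat diet by 0.0574 percentage points (exact permutation p = 0.1). That step again shrinks mostly the total of SalB replicate 2, so it raises the share of that library by itself.

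Counted against reads with any mitochondrial alignment, the members were lower with SalB. They were 31.7%, 27.3% and 41.6% of such reads with normal diet, 23.3%, 28.9% and 28.8% with high fat diet, and 15.3%, 8.88% and 9.97% with SalB. The SalB libraries lay below all others (exact two-sided permutation p = 0.1 against each group, the smallest possible). Mature His-GTG reads starting at position 32 stood at 139 to 287 in the 6 other libraries and at 6356, 5292 and 4295 with SalB, and they enter that denominator.

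His-GTG gave 50 leader side reads, all of which began exactly 1 base ahead of the tRNA. Transfer RNAs for histidine are known for an extra guanosine ahead of position 1, added after transcription by a dedicated enzyme and read by the histidyl-tRNA synthetase. The base ahead of the gene in the reference is T, and 46 of the 50 reads carried G there (T1G, counted from the read's 5′ end), 3 carried T and 1 another base. The most frequent form ran through the anticodon, positions 31 to 33, and is shown with the extra base in a capital.
His-GTG 5′ read: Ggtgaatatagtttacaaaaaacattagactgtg

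By library, G stood ahead in 4 of 5, 7 of 7 and 4 of 5 such reads with normal diet, in 5 of 5, 2 of 2 and 6 of 6 with high fat diet, and in 7 of 8, 2 of 3 and 9 of 9 with SalB. Over all 9 libraries T became G at the first base in 0.360% to 2.46% of reads whose reference starts with T. Another 23 His-GTG reads started at position 1, so reads with G ahead were 63.0% of the 73 reads at this 5′ end (exact binomial 95% interval 50.9% to 74.0%, for counting error only). Of the other mitochondrial tRNAs, 15380 reads began at position 1 and 4 began 1 base ahead. Most of these were Ser-GCT, with 13597 at position 1 and 3 ahead, and Ser-TGA gave 1159 at position 1. The contrast thus rests mainly on these 2 tRNAs. Of the 50 reads, 34 ended at position 33 and 7 at position 32. The sum had too few reads to be tested between groups, at 2 to 9 per library.

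The boundary between His-GTG and Ser-GCT, which abut with no spacer, gave 75 reads that align to both precursors. They numbered 2, 1 and 2 with normal diet, 5, 1 and 6 with high fat diet, and 28, 15 and 15 with SalB. Every SalB library lay above all 6 others, on a sum that was not tested for want of reads. Such a gap was found for 27.5% of tested sums over high fat diet and 26.5% over normal diet.

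The mature His-GTG end with its added CCA and the unprocessed boundary with the start of Ser-GCT differ only behind the last tRNA base, where capitals begin.
His-GTG with CCA: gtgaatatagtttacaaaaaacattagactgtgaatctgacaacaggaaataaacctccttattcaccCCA
His-GTG from position 32 into Ser-GCT: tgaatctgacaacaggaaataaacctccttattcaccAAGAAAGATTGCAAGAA
Of the 75 reads, 72 started at position 32 of His-GTG and ran at most 3 bases past it, 5 of them with no mismatch to the precursor. Among the 72, 68 lay 2 mismatches from the mature tRNA with CCA and 4 lay more than 2 from it. The files hold no alignment with more than 1 mismatch, so such reads could meet the precursor reference only. A read nearer the mature end would not be a member, so 2 is the smallest distance possible here. The 5 reads with no mismatch to the precursor are among the 68. Only 3 reads extended 17 or more bases into Ser-GCT.

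Set against the mature His-GTG reads with the same start, the reads from position 32 counted on this boundary were fewer with SalB. They stood at 4.25, 2.46 and 3.49 per 1000 such reads with SalB, at 9.85, 5.32 and 6.97 with normal diet and at 17.6, 7.19 and 28.8 with high fat diet. Every SalB value lay below every other. The values outside SalB rest on 1 to 6 such reads per library, and the difference was not tested. Reads within 1 mismatch of the mature end are not members by definition, so the distance of 2 cannot tell uncut from mature RNA. How much of these values is uncut RNA was not tested.

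The remaining tRNAs held 106 reads, of which 84 came from SalB replicates 1 and 2, both low first-base libraries. SalB replicate 2 is also the deepest. Antisense and non-coding flanks had 81 reads, 46 of them in SalB replicate 2 and 20 in SalB replicate 1, against 1 to 3 in each other library. Only 28 of the 81 had no mismatch, against 62.4% of the Val-TAC trailer reads.

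Ile-GAT, whose trailer is antisense to Gln-TTG, had 20 trailer side reads with 15 in SalB replicate 2. Thr-TGT, antisense to Pro-TGG, had 18 with 11 there, and Trp-TCA, antisense to Ala-TGC, had 9 with 6 there. The remaining SalB libraries had 1 and 2 Thr-TGT, 3 and 0 Ile-GAT and 1 and 0 Trp-TCA reads.

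Asn-GTT and Cys-GCA flank the origin of light-strand replication, a hairpin in the DNA. Its 19 reads came from SalB replicate 1 (10 reads) and SalB replicate 2 (9 reads). Only 5 of the 19 had no mismatch to the reference. A count of 0 in the other 7 libraries allows a share of up to 0.00317% to 0.0106% of tRNA reads (3 reads per library, counting error only). These origin reads are a feature of 2 libraries, since SalB replicate 3 had none. The part of depth and of the first-base split in them was not tested.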

How the data were processed

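Total RNA from serum was made into adapter-ligated libraries of selected size for an Illumina NextSeq 500, per the labels' protocols. The submitters' processing notes list FastQC, cutadapt, Bowtie and edgeR, and the build mm10, without saying what each did. Each deposited file lists the alignments of 1 library, with read lengths of 14 to 40 bases and no more than 1 mismatch, on mature tRNAs and on precursors. The count of each collapsed read stands in its name. The totals therefore cover tRNA reads only. Each read was counted once per library, whatever its number of alignments, and the reference bases were pieced together from reads with no mismatch. Gene coordinates are those of RefSeq GRCm38.p6. The His-GTG reference has 68 bases against 67 in RefSeq, so no coordinates are given for it.

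Sums per tRNA and side and distinct reads were tested over all 9 libraries with limma-voom (limma 3.58.1, R 4.3.3), with TMM scaling, two-sided tests and Benjamini-Hochberg adjustment at 0.05. No negative binomial count test was run. The filter asked for 10 reads at the median depth in at least 3 libraries and 15 in all, which 733 reads and 102 sums passed. Simulated data used the same fixed spread in every group, so they do not mirror the wider spread among the SalB libraries. For SalB against high fat diet, 27% of 2-fold and 90% of 4-fold changes were recovered in them over 659 reads. Over 98 sums the values were 26.7% and 86.7%. Shares were compared by exact permutation (Python 3.11.15). Alternatives were scaling by RLE or by total counts, a filter of 10 reads in 6 libraries or none at all, limma on log2 values with a pseudocount of 1, the replicate block, only the libraries compared, reads with no mismatch, other denominators, each distinct read once, and each library left out. Named sums were the 6 with most reads and any called. Named reads were the 10 with most reads, up to 5 called per comparison and direction, or the 2 with the smallest p where none was called. Other features were named after their values were seen. The members and lists were chosen with earlier results of these data known. Libraries of 1 group differed by more than sampling noise. Chi-square per degree of freedom was 2.30 to 2.41 between high fat diet libraries and 3.61 to 5.46 between normal diet libraries. Between SalB replicates 1 and 3 it was 6.39. For SalB replicate 2 it was 31.0 against replicate 1 and 28.9 against replicate 3.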

Additional observations from a re-analysis of the deposited data

How the results depend on the processing

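Reads seen once make up most distinct members, and 24 of the 26 sums were too shallow to test, so changes in them were not detectable at this depth. The replicate numbers do not pair the samples (correlations of same-numbered deviations from -0.32 to 0.15). With the replicate block the called members were 9 and 5 in place of 10 and 7 for SalB against high fat diet and against normal diet. Of all 733 reads the block called 264 and 271 in place of 251 and 286. The Val-TAC sum had a log2 fold change of 1.03 with the block (limma-voom adjusted p = 0.0654). Scaling by total counts called 1 and 0 members and moved the median of all reads by SalB from -0.15 to -0.84 and from -0.10 to -0.75. Of all reads it called 66 higher and 237 lower in place of 129 and 122, and 80 and 248 in place of 150 and 136. Of the sums it called 8 higher and 21 lower in place of 8 and 14, and 7 and 12 in place of 16 and 10. The first-base set as a term, chosen after seeing the data, called 3 and 4 members. Of all reads it called 164 and 281 in place of 251 and 286, and of the sums 9 and 18 in place of 22 and 26. With no filter 12 members were called for SalB against normal diet and 2 for high fat diet against normal diet, and 1145, 1292 and 55 reads in all for SalB against high fat diet, for SalB against normal diet and for the diets against each other. The stricter filter called 170 reads and reads with no mismatch 190 for SalB against normal diet, and reads with no mismatch 162 for SalB against high fat diet. With only the libraries compared, 3 of 11 tested members were called for SalB against normal diet, beside 230 of all 676 tested reads. That setting called 5 sums for high fat diet against normal diet, and 10 and 16 for SalB against high fat diet and against normal diet. Leaving out 1 library gave 4 to 10 and 3 to 7 called members, 149 to 257 and 188 to 276 reads, and 10 to 33 and 17 to 42 sums. The members' share differed by -15.6 and -22.1 percentage points with mitochondrial reads as the denominator, and the share outside the Val-TAC trailer by -1.20 and -0.560. The leader share of SalB less normal diet was 0.422 percentage points with no-mismatch reads, 1.67 with each distinct read once, and -0.544 to 0.563 leaving out 1 library. The first-base share of SalB less high fat diet was -2.92 with each distinct read once. Phe-GAA for SalB against high fat diet turned to -0.083 with RLE factors, -0.54 with total counts, -0.17 with no filter, -0.37 with the first-base set, and ran from -0.41 to 0.33 leaving out 1 library. The Phe-GAA share of SalB less normal diet ran from -0.00710 to 0.305, and that of 24 to 26 bases for high fat diet less normal diet from -0.857 to 3.57. The causes were not tested.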
